A study of Mus musculus with 11 samples.

Results

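The MHC class I antigen presentation genes described here are 10 genes picked by name: the heavy chains H2-K1, H2-D1, H2-T23, H2-Q4 and H2-M3, the light chain B2m, the peptide transporter subunits Tap1 and Tap2, the loading chaperone Tapbp and the regulator Nlrc5. All 10 of 10 were found among the 24411 genes of the deposited table. They were followed in neuroblastomas that arose spontaneously in mice homozygous for the Th-MYCN transgene, in which the tyrosine hydroxylase promoter drives MYCN in cells of the sympathetic lineage. All groups carried that transgene, and treatment began when a tumour measured 5 mm. Mice received a single dose of CBL0137 (40 mg/kg, intravenously) together with panobinostat (5 mg/kg, intraperitoneally), CBL0137 alone, panobinostat alone, or vehicle, and tumours were taken 16 h later. CBL0137 is a curaxin, a DNA-binding compound that traps the histone chaperone FACT on chromatin, and panobinostat is a histone deacetylase inhibitor. The combination, CBL0137 and vehicle groups held 3 libraries each and the panobinostat group held 2 (replicates 1 and 3), with 1 library per tumour; panobinostat replicate 2 was not analysed here. The design text counts mice per group; strain and age are not given in the sources used here.

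MHC class I molecules display peptides made inside a cell to CD8 T cells, and natural killer cells respond when they are missing. A heavy chain folds with beta-2 microglobulin in the endoplasmic reticulum, where the TAP transporter (Tap1 with Tap2) brings in peptides and tapasin (Tapbp) holds the empty molecule beside it. NLRC5 is the class I transactivator, and it works through a promoter module whose X and Y boxes are bound by the RFX factors, CREB/ATF factors and NF-Y; interferons and NF-kB also act on these promoters. Neuroblastoma, above all the MYCN-amplified form, is known for low class I.

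In the GRCm38.p6 annotation 8 of the 10 genes lie on chromosome 17, between the start of Tapbp at 33919478 and the end of H2-M3 at 37274485. B2m lies at chr2:122147687-122153082 and Nlrc5 on chromosome 8. RefSeq promoter windows, each 300 bases long with 250 before and 50 after the start site, were at hand for 8 of the 10 (H2-K1, H2-D1, H2-T23, H2-Q4, H2-M3, B2m, Tap1 and Tapbp). The 4 windows below are shown because they cover both classical heavy chains, the shared light chain and the transporter subunit with the largest change. Capitals mark matches to 4 motifs searched on both strands: TTTCNNTTC (an interferon-type element), TGACG (the core of an X2-type box), ATTGG (a Y box) and the NF-kB consensus. NF-kB matches on opposite strands overlap one another, and in H2-M3 such a match also overlaps an ATTGG.
H2-K1 promoter, chr17:34000298-34000597, minus strand: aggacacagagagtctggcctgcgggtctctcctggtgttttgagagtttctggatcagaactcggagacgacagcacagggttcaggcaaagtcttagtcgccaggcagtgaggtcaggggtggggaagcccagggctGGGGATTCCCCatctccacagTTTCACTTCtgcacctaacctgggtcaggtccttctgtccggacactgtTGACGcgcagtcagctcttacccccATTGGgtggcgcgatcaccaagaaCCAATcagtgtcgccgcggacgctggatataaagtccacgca
H2-D1 promoter, chr17:35262844-35263143, plus strand: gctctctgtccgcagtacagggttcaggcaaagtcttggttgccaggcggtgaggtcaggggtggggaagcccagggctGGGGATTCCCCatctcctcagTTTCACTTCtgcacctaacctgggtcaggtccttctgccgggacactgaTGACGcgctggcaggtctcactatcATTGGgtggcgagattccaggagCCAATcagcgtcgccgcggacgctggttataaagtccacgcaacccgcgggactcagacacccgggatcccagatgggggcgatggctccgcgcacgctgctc
B2m promoter, chr2:122147437-122147736, plus strand: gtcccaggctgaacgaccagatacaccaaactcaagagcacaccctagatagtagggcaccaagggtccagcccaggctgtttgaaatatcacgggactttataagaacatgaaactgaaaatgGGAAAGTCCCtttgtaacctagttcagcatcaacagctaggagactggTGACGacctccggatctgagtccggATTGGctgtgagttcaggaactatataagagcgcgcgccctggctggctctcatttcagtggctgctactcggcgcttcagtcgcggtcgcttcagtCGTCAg
Tap1 promoter, chr17:34187306-34187605, plus strand: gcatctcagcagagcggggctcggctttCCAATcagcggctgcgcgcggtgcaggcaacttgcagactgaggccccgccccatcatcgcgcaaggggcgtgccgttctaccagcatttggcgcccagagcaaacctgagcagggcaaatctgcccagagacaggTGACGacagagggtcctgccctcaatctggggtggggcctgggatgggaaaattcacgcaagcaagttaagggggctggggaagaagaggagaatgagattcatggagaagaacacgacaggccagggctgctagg

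H2-K1 and H2-D1 carried the same order of matches: NF-kB, TTTCNNTTC, TGACG and then ATTGG on both strands. TTTCNNTTC was found in 4 of the 8 windows (H2-K1, H2-D1, H2-Q4 and H2-M3), against 7.56% of 27025 mouse promoter windows. The NF-kB consensus was found in 5 of 8 (those 4 and B2m), against 4.35%. TGACG was found in 6 of 8, against 21.0%, and ATTGG in 8 of 8, against 37.9%. The Tap1 window shares 275 bases with that of Psmb9, an immunoproteasome gene read in the opposite direction, and held neither TTTCNNTTC nor the NF-kB consensus. RefSeq lists 2 start sites for H2-K1, 14 bases apart, and the window of the first is printed.

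In 4 of the 8 windows, TGACG was followed after exactly 20 bases by ATTGG, a spacing that 26 of the 27025 windows hold (0.0962%). The spacing was picked after the sequences had been read, so its share is a description. The 4 stretches begin 41 bases before the start site in H2-K1, 46 in H2-M3 and 78 in B2m, and lie further upstream in H2-D1. They are shown side by side because the outer boxes are the same while the 20 bases between them differ, with both boxes in capitals.
H2-K1 module, chr17:34000359-34000388, minus strand: TGACGcgcagtcagctcttacccccATTGG
H2-D1 module, chr17:35262993-35263022, plus strand: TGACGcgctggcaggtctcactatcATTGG
H2-M3 module, chr17:37270188-37270217, plus strand: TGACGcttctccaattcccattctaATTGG
B2m module, chr2:122147609-122147638, plus strand: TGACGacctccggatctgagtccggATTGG

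The classical heavy chains present most cytosolic peptides to CD8 T cells. H2-K1 stood at 953, 885 and 457 TPM (a length-corrected transcript level whose total is the same in each library) after the combination, 125, 118 and 395 TPM after CBL0137, 201 and 200.4 TPM after panobinostat, and 38.1, 40.3 and 25.5 TPM in vehicle tumours. H2-D1 stood at 1015, 1015 and 602 TPM after the combination, 166, 169 and 441 TPM after CBL0137, 266 and 288 TPM after panobinostat, and 64.7, 68.6 and 53.8 TPM in vehicle tumours. For both chains, as for all 10 genes, every treated library was above every vehicle library; this held for 38.4% of all tested genes after the combination, 18.6% after CBL0137 and 37.1% after panobinostat. Also every combination library was above every library of either drug alone. That held for 36.9% of all tested genes relative to CBL0137 and 25.1% relative to panobinostat. CBL0137 replicate 3 stood far above its group, and combination replicate 3 far below its own. Relative to vehicle, H2-K1 changed by 4.38 ± 0.44 on the log2(TPM + 1) scale after the combination (SE, here and below; limma adjusted p = 2.25e-05 over all tested genes), by 2.37 ± 0.44 after CBL0137 (adjusted p = 0.0135) and by 2.53 ± 0.49 after panobinostat (adjusted p = 0.00318). H2-D1 changed by 3.76 ± 0.35, 1.88 ± 0.35 and 2.14 ± 0.39 in the same order (adjusted p = 1.56e-05, 0.013 and 0.00227). These are whole tumours, so a change in the number of cells of a type and a change in RNA per cell (fewer cells and less RNA, or more of either) cannot be told apart.

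The nonclassical chains were lower in level and moved the same way. H2-T23, which encodes Qa-1, a ligand of an inhibitory receptor on natural killer cells, stood at 367, 386 and 201 TPM after the combination, 52.3, 54.9 and 169.6 TPM after CBL0137, 41.6 and 44.0 TPM after panobinostat, and 7.34, 7.98 and 7.75 TPM in vehicle tumours. H2-Q4 stood at 115, 100.02 and 53.1 TPM after the combination, 12.6, 12.3 and 52.3 TPM after CBL0137, 10.4 and 10.5 TPM after panobinostat, and 1.85, 1.36 and 1.38 TPM in vehicle tumours. H2-M3, which presents N-formylated peptides, stood at 27.5, 26.4 and 17.4 TPM after the combination, 3.91, 4.18 and 11.02 TPM after CBL0137, 6.64 and 7.33 TPM after panobinostat, and 1.01, 1.68 and 0.89 TPM in vehicle tumours. No treated library of these genes overlapped vehicle, and H2-T23 and H2-Q4, but not H2-M3, were higher in every CBL0137 library than in either panobinostat library. After the combination the log2 changes were 5.14 ± 0.40 for H2-T23, 5.09 ± 0.48 for H2-Q4 and 3.49 ± 0.33 for H2-M3 (limma adjusted p = 8.54e-06, 1.78e-05 and 1.82e-05). After CBL0137 they were 3.20 ± 0.40, 3.08 ± 0.48 and 1.64 ± 0.33 for the same genes (adjusted p = 0.00174, 0.00624 and 0.0206). After panobinostat they were 2.33 ± 0.45, 2.19 ± 0.54 and 1.88 ± 0.37 (adjusted p = 0.00307, 0.00957 and 0.00346).

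**Figure D1:**
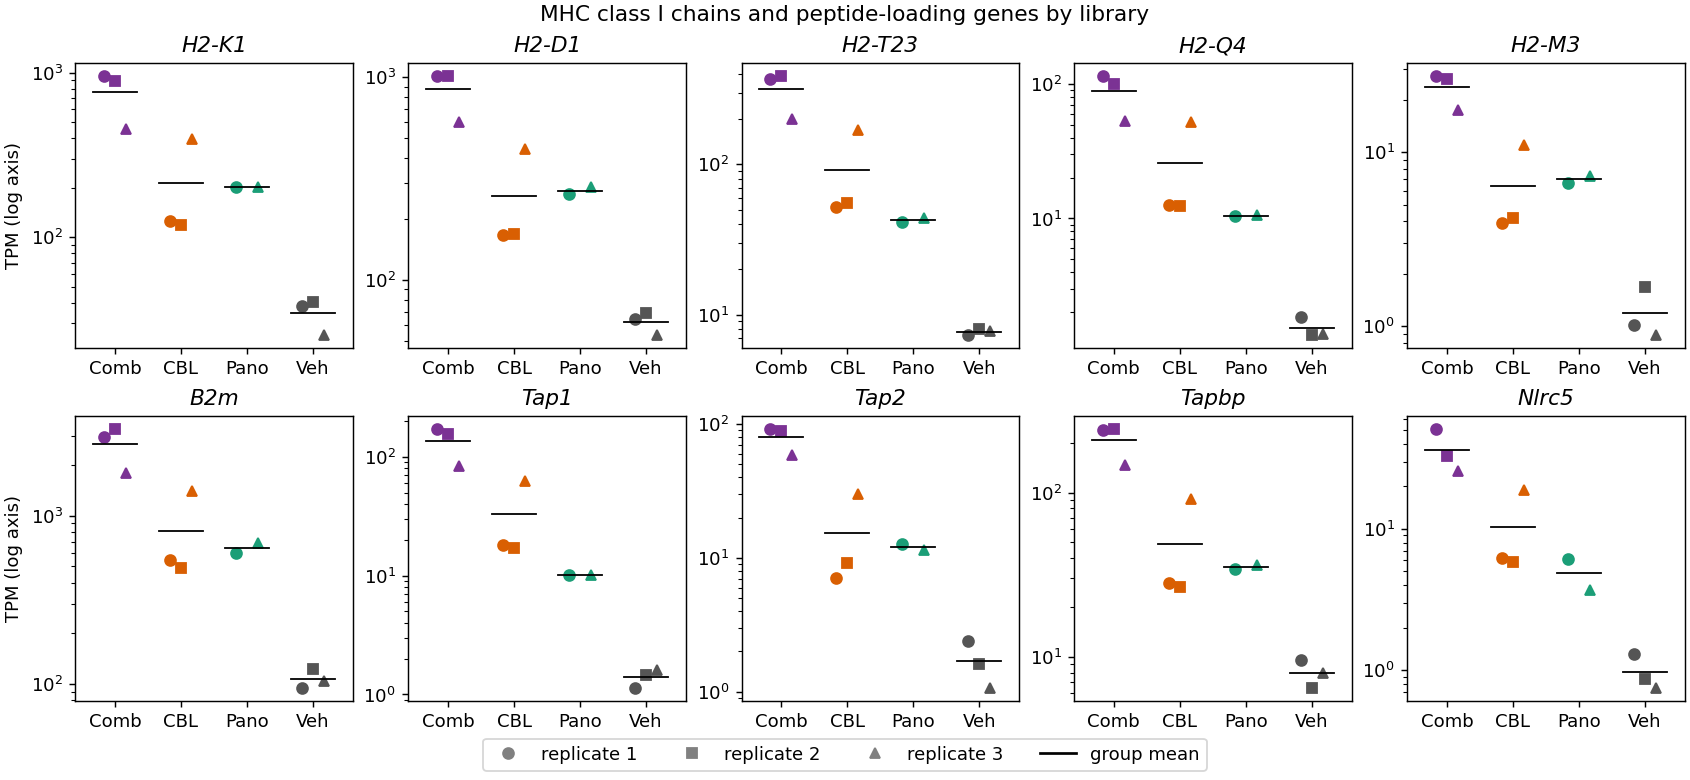
Level of each of the 10 genes in each library, in TPM on a log axis, for the combination (Comb), CBL0137 (CBL), panobinostat (Pano) and vehicle (Veh); each point is 1 tumour. In all 10 panels the treated points lie above the vehicle points, and CBL0137 replicate 3 is the highest of its group.

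The heavy chains resemble one another, and the authors' estimates may share reads between them. Of the 31-base words in the GENCODE transcripts of each gene, the share also present in another gene was 23.3% for H2-K1 (16.8% with H2-D1), 27.5% for H2-D1, 43.4% for H2-Q4 and 48.4% for H2-T23. For H2-M3 it was 4.62%, for B2m and Nlrc5 0%, and for Tap1, Tap2 and Tapbp 1.70%, 1.49% and 2.86%. Levels of single heavy chains, H2-T23 and H2-Q4 above all, are therefore uncertain, while those of the other genes rest on sequence that is nearly all their own.

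The light chain B2m, which every class I heavy chain needs, was the most abundant of the 10 in all 11 libraries. It stood at 2949, 3281 and 1805 TPM after the combination, 543, 491 and 1407 TPM after CBL0137, 599 and 688 TPM after panobinostat, and 94.8, 122.9 and 103 TPM in vehicle tumours. The log2 change was 4.59 ± 0.36 after the combination, 2.75 ± 0.36 after CBL0137 and 2.58 ± 0.41 after panobinostat (limma adjusted p = 8.81e-06, 0.00234 and 0.00128). The combination and vehicle libraries did not overlap those of either single drug, while the panobinostat libraries lay inside the range of the CBL0137 libraries.

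Tap1 and Tap2 form the peptide transporter as a heterodimer. Tap1 stood at 172, 157 and 83.4 TPM after the combination, 18.2, 17.2 and 63.0 TPM after CBL0137, 10.07 and 10.07 TPM after panobinostat, and 1.14, 1.45 and 1.62 TPM in vehicle tumours. Tap2 stood at 91.9, 89.2 and 58.4 TPM after the combination, 7.07, 9.22 and 30.1 TPM after CBL0137, 12.6 and 11.4 TPM after panobinostat, and 2.39, 1.60 and 1.07 TPM in vehicle tumours. The 4 groups followed one another without overlap for Tap1, from the combination down through CBL0137 and panobinostat to vehicle, whereas for Tap2 the panobinostat libraries lay between those of CBL0137. Tap1 had the largest log2 change of the 10 after the combination (5.78 ± 0.44, limma adjusted p = 7.6e-06) and after CBL0137 (3.56 ± 0.44, adjusted p = 0.00157), and it changed by 2.21 ± 0.49 after panobinostat (adjusted p = 0.00589). By log2 change, Tap1 stood in place 71 of 15497 tested genes after the combination and in place 76 after CBL0137. Tap2 changed by 4.91 ± 0.43, 2.38 ± 0.43 and 2.31 ± 0.49 after the combination, CBL0137 and panobinostat (adjusted p = 1.32e-05, 0.0124 and 0.00454).

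Tapbp stood at 240.45, 244 and 147 TPM after the combination, 28.2, 26.6 and 91.8 TPM after CBL0137, 34.3 and 36.1 TPM after panobinostat, and 9.53, 6.47 and 7.90 TPM in vehicle tumours. Its log2 change was 4.54 ± 0.41, 2.25 ± 0.41 and 2.03 ± 0.46 after the combination, CBL0137 and panobinostat (limma adjusted p = 1.41e-05, 0.0121 and 0.00623). Nlrc5, the regulator, stood at 51.1, 32.9 and 25.7 TPM after the combination, 6.19, 5.81 and 18.9 TPM after CBL0137, 6.09 and 3.72 TPM after panobinostat, and 1.31, 0.86 and 0.75 TPM in vehicle tumours. It reached 1 TPM in only 1 vehicle library, so it entered the test through the treated groups. Its log2 change was 4.20 ± 0.41 after the combination, 2.34 ± 0.41 after CBL0137 and 1.56 ± 0.45 after panobinostat (adjusted p = 1.89e-05, 0.00983 and 0.0197). The panobinostat call of Nlrc5 was lost with a pseudocount of 5 (0.72, limma adjusted p = 0.119) or quantile normalization (0.71, adjusted p = 0.184). The same held with no filter (adjusted p = 0.0564), the replicate number as a block (1.44, adjusted p = 0.051) or without vehicle replicate 3 (adjusted p = 0.0567). Without panobinostat replicate 1, which left 1 library in that group, its change was 1.27. Neither gene overlapped vehicle in any treated library.

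All 10 genes were called higher than vehicle after the combination, where 35.9% of the 15497 tested genes were called higher; after CBL0137 10 of 10 were, against 4.99%; after panobinostat 10 of 10 were, against 25.5%. None was called lower, against 30.1%, 1.13% and 16.9% of tested genes. These counts include Nlrc5, which entered the test through the treated groups. The 9 genes that reached 1 TPM in at least 2 vehicle libraries were all called higher in each comparison. The median log2 change of the 10 was 4.57 after the combination, 2.38 after CBL0137 and 2.20 after panobinostat, beside 0.08, -0.01 and 0.10 over all tested genes; the 3 comparisons share the vehicle libraries. On the TPM scale, group means were 97.8-fold (Tap1) to 14.1-fold (H2-D1) higher than vehicle after the combination, 23.4-fold (Tap1) to 4.15-fold (H2-D1) after CBL0137, and 7.18-fold (Tap1) to 4.42-fold (Tapbp) after panobinostat. The CBL0137 calls depended on 1 library: without vehicle replicate 3, 5 of 10 were called, and H2-K1, H2-D1, H2-M3, Tap2 and Tapbp had limma adjusted p between 0.0525 (Tapbp) and 0.0896 (H2-M3). Without CBL0137 replicate 3, 10 of 10 were called.

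**Figure D2:**
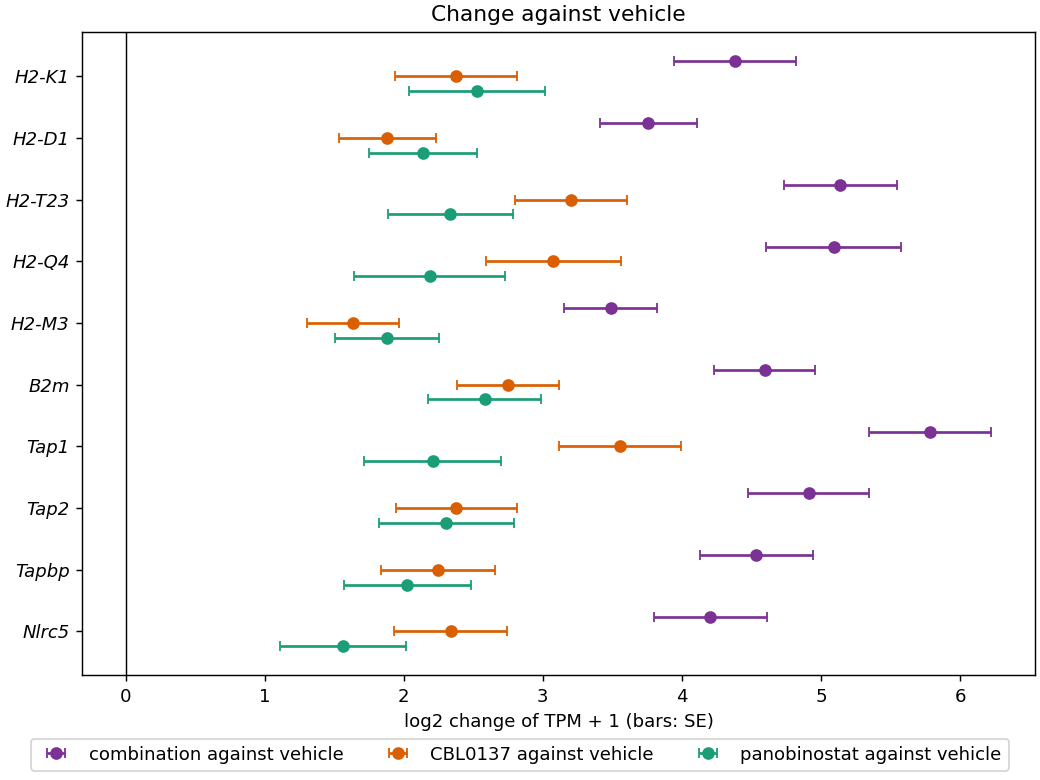
Log2 change relative to vehicle of each of the 10 genes after the combination, CBL0137 and panobinostat, in log2(TPM + 1) units; points are limma estimates and bars are SE. The combination estimates run from 3.49 (H2-M3) to 5.78 (Tap1) and lie above both single drugs for every gene.

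The combination was also set against each drug alone. Relative to CBL0137, 10 of 10 genes were called higher, against 33.2% of tested genes (23.7% were called lower), with log2 changes of 1.85 to 2.53; Tap2 had the largest (2.53 ± 0.43, limma adjusted p = 0.000986). Relative to panobinostat, 10 of 10 were called higher, against 6.24% of tested genes (4.3% were called lower), with changes from 1.61 ± 0.37 for H2-M3 (adjusted p = 0.0315) to 3.58 ± 0.49 for Tap1 (adjusted p = 0.0037). That count depended on single libraries: it was 2 of 10 without panobinostat replicate 1 and 2 of 10 without panobinostat replicate 3, and 6 of 10 without combination replicate 1 or without combination replicate 2. With 1 panobinostat library left, the fit takes its spread from the remaining groups; the log2 changes of the 10 genes were then still 1.55 (H2-M3) to 3.58 (Tap1) without replicate 1 and 1.67 (H2-M3) to 3.58 (Tap1) without replicate 3. With no filter on low values it was 3 of 10. In the TPM themselves, no combination library overlapped a library of either drug for any of the 10 genes, while 36.9% of tested genes were higher without overlap relative to CBL0137 and 25.1% relative to panobinostat.

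CBL0137 was set against panobinostat directly. None of the 10 genes was called, against 6.81% of tested genes called higher and 12.1% called lower. Tap1 was the furthest apart, 1.35 ± 0.49 higher on the log2 scale (limma unadjusted p = 0.021, adjusted p = 0.0808), with a 95% interval of 0.25 to 2.44. It was the only gene of the 10 with an unadjusted p under 0.05, and it was called with TMM factors (1.49, adjusted p = 0.0472) and with quantile normalization (1.67, adjusted p = 0.0414). H2-Q4, H2-T23 and Nlrc5 differed by 0.89, 0.87 and 0.78, with intervals that spanned 0. The other 6 differed by -0.25 (H2-D1) to 0.22 (Tapbp), and the interval for H2-K1, -1.25 to 0.94, does not show that the drugs acted alike. Every CBL0137 library was above both panobinostat libraries for H2-Q4, H2-T23 and Tap1, as for 22.2% of tested genes.

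The interaction, which compares the log2 change after the combination with the 2 single-drug log2 changes added up, was called for 0 of 10 genes and 0% of tested genes. No member had a limma unadjusted p under 0.05, while 1631 of the tested genes did. Estimates ran from -0.74 for B2m (95% interval -1.95 to 0.48) to 0.30 for Nlrc5 (-1.05 to 1.66). On the TPM scale the gain in the group mean over vehicle was larger after the combination than the 2 single-drug gains added together for every member. For B2m the gain was 2571 TPM, against 1243 TPM for the sum; for H2-K1 it was 730.2 TPM, against 344 TPM; for Tap1 it was 136 TPM, against 40.1 TPM; and for Nlrc5 it was 35.6 TPM, against 13.25 TPM. The additive sum on the TPM scale was not tested.

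**Figure D3:**
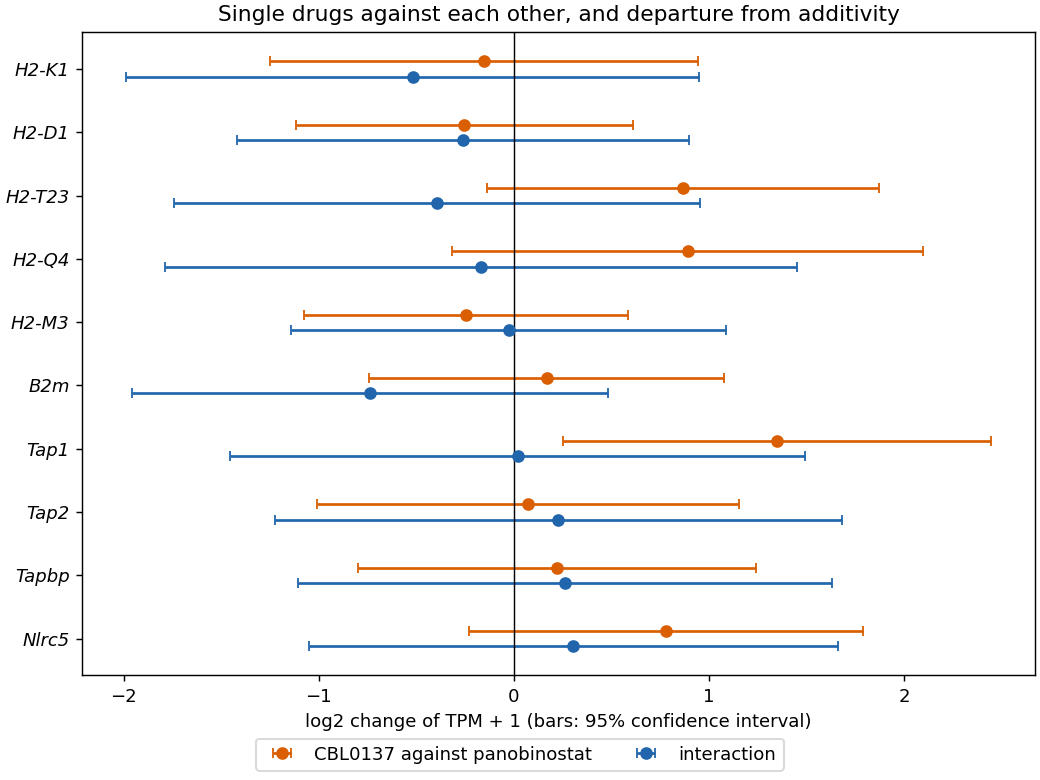
Log2 difference of each of the 10 genes between CBL0137 and panobinostat, and the interaction, in log2(TPM + 1) units. Points are limma estimates and bars are 95% intervals. Intervals for the interaction all span 0, and between CBL0137 and panobinostat only that of Tap1 lies above 0.

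Shares of the heavy chain pool were computed for each library and, apart from the ratio of H2-K1 to H2-D1 given further on, were not tested. The 5 heavy chains summed to 2477, 2413 and 1330.3 TPM after the combination, 360.4, 359 and 1069 TPM after CBL0137, 525 and 549.8 TPM after panobinostat, and 113, 120 and 89.3 TPM in vehicle tumours. H2-D1 made up 41.0% to 45.3% of that sum after the combination, 41.3% to 47.1% after CBL0137, 50.6% to 52.3% after panobinostat, and 57.2% to 60.3% in vehicle tumours. H2-T23 made up 14.8% to 16.0% after the combination and 14.5% to 15.9% after CBL0137, but 7.92% to 8.01% after panobinostat and 6.50% to 8.68% in vehicle tumours. H2-Q4 made up 3.99% to 4.65%, 3.43% to 4.89%, 1.92% to 1.98% and 1.13% to 1.64% in the same 4 groups. The H2-T23 and H2-Q4 shares of libraries that received CBL0137 did not overlap those of libraries that did not, with the uncertainty from shared sequence given above. Together the 10 genes took 0.345% to 0.622% of a library's TPM after the combination, 0.0909% to 0.268% after CBL0137, 0.119% to 0.130% after panobinostat, and 0.0204% to 0.0253% in vehicle tumours.

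**Figure D4:**
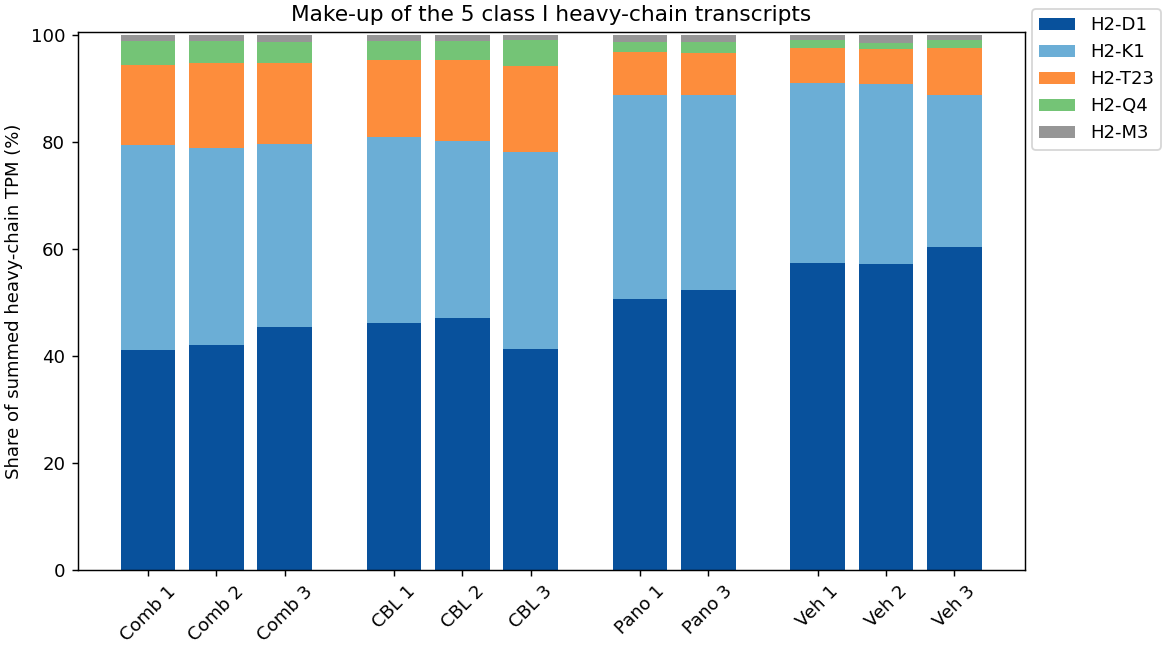
Share of each of the 5 heavy chains in their summed TPM, in percent, in each library of the combination, CBL0137, panobinostat and vehicle groups. The H2-D1 share is 57.2% to 60.3% in vehicle and 41.0% to 45.3% after the combination.

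For 3 pairs of partners the log2 ratio within a library was tested over the 4 groups at once, by an exact permutation test of F over 92400 assignments of the libraries, adjusted over the 3 ratios. Tap1 over Tap2 differed (exact p = 0.00643, adjusted p = 0.0125), at 0.74 ± 0.20 after the combination, 1.04 ± 0.21 after CBL0137, -0.23 ± 0.09 after panobinostat, and -0.14 ± 0.50 in vehicle tumours (SD, n = 3, 3, 2 and 3). Tap1 thus exceeded Tap2 in every library that received CBL0137 and was below it in both panobinostat libraries. H2-K1 over H2-D1 differed as well (exact p = 0.00831, adjusted p = 0.0125), at -0.23 ± 0.16, -0.36 ± 0.18, -0.46 ± 0.08 and -0.85 ± 0.17 in the same 4 groups. All vehicle libraries lay below all treated libraries, and without vehicle replicate 3 the exact adjusted p was 0.0521. H2-K1 over B2m gave no call (exact p = 0.277, adjusted p = 0.277), with ratios of -1.83 ± 0.18, -1.99 ± 0.145, -1.67 ± 0.14 and -1.62 ± 0.34.

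**Figure D5:**
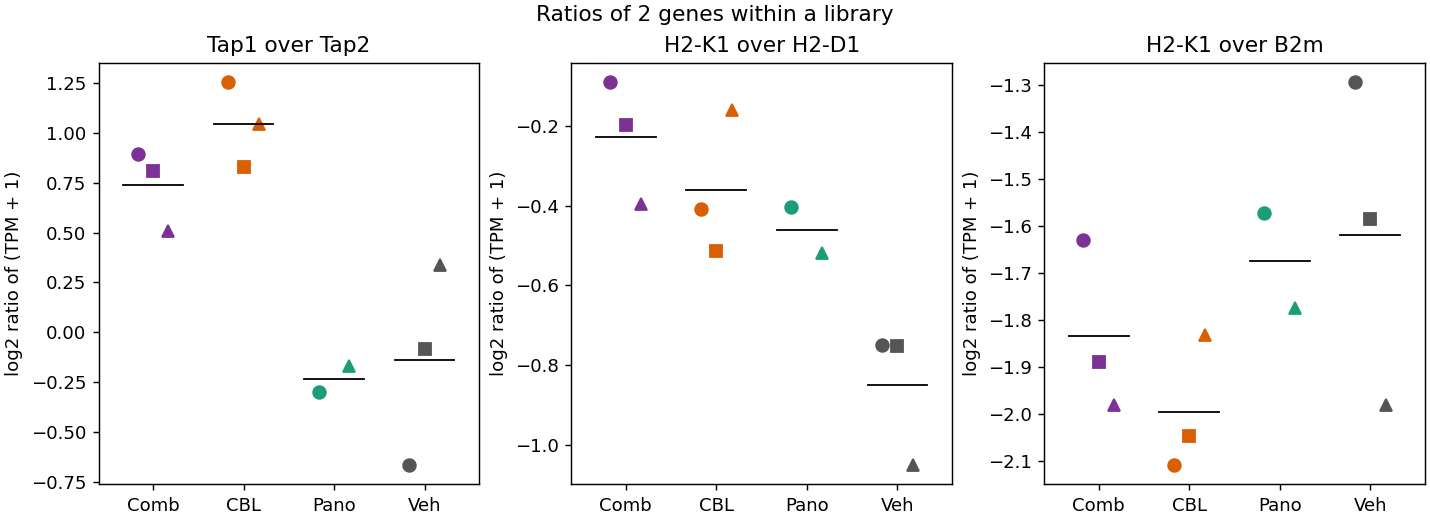
Log2 ratio of Tap1 over Tap2, H2-K1 over H2-D1 and H2-K1 over B2m, as (TPM + 1), in each library of the combination, CBL0137, panobinostat and vehicle groups; lines are group means and symbols give the replicate number. For Tap1 over Tap2, libraries with CBL0137 lie above both panobinostat libraries.

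The 10 genes moved together from library to library. Over the 11 libraries Pearson r of log2(TPM + 1) between 2 members ran from 0.961 (Tap1 and H2-M3) to 0.998 (H2-D1 and H2-K1), with a median of 0.985 over 45 pairs; the libraries share treatment groups, so this is a description. With group means subtracted it ran from 0.792 (Nlrc5 and B2m) to 0.989 (H2-D1 and H2-K1), with a median of 0.941. CBL0137 replicate 3 was the highest of its group in 10 of 10 genes, at 2.63 (H2-D1) to 4.21 times (H2-Q4) the mean of replicates 1 and 2. Combination replicate 3 was the lowest of its group in 10 of 10, at 0.494 (H2-Q4) to 0.646 times (H2-M3) the mean of replicates 1 and 2.

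Genes whose pattern over the 11 libraries was most like a member were, for H2-K1, Cybb (r = 0.996), Serpinb9, Icam1, Il10ra and Dapp1. For B2m they were Psmb8 (0.997), Clec2d, Fcgr4, Ly86 and Casp1. For Tap1 they were Trim30a (0.999), Mndal, Ifi203, Sp100 and Gbp9, and for Nlrc5 they were Cd274 (0.995), which encodes PD-L1, Irf1, Themis2, Helz2 and Mov10. With group means subtracted, the closest were Slfn5 for H2-K1 (0.996), Lgals3bp for B2m (0.990), Trim30a for Tap1 (0.994) and Slc36a1 for Nlrc5 (0.984), out of 12662 genes compared.

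Of the other class I chains, 17 of 24 in the table passed the filter, 9 of them only with the help of treated libraries. Among the 8 that reached 1 TPM in at least 2 vehicle libraries, 8 were called higher than vehicle after the combination (35.9% of all tested genes were), 3 after CBL0137 (4.99%) and 6 after panobinostat (25.5%), and none lower. Of these 8, H2-T22 changed by 5.45, 3.55 and 2.75 on the log2 scale after the combination, CBL0137 and panobinostat, and Mr1, which presents microbial vitamin metabolites, by 3.52 after the combination and 2.60 after panobinostat. The summed level of the 24 chains was 427 to 873 TPM after the combination, 118 to 324 TPM after CBL0137, 170.5 to 206 TPM after panobinostat, and 39.4 to 49.7 TPM in vehicle tumours.

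Peptides reach the transporter from the proteasome and are trimmed and loaded with the help of chaperones. Of 18 tested genes of peptide supply and folding, 14 were called higher than vehicle after the combination (35.9% of all tested genes), 7 after CBL0137 (4.99%) and 8 after panobinostat (25.5%), and none lower, with medians of 1.43, 0.48 and 0.42. The immunoproteasome subunit Psmb8 averaged 243 ± 71.9 TPM after the combination, 69.9 ± 45.7 TPM after CBL0137, 43.4 ± 2.87 TPM after panobinostat, and 4.91 ± 0.99 TPM in vehicle tumours (SD, n = 3, 3, 2 and 3). Its log2 change was 5.33, 3.42 and 2.92 in the 3 comparisons, and that of Psmb9, its partner subunit, was 5.35, 3.37 and 2.32. Erap1, the aminopeptidase that trims peptides in the endoplasmic reticulum, changed by 3.24, 1.72 and 1.65. Between CBL0137 and panobinostat, 3 of the 18 were called higher after CBL0137 (6.81% of all tested genes) and none lower (12.1%). They were the proteasome activator subunits Psme1 (0.73) and Psme2 (0.87) and the immunoproteasome subunit Psmb10 (1.24).

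Of 29 regulators of class I transcription, 19 were called higher than vehicle after the combination (35.9% of all tested genes), 7 after CBL0137 (4.99%) and 15 after panobinostat (25.5%). After the combination 6 of 29 were called lower, a smaller share than the 30.1% of all tested genes; after CBL0137 0 were (1.13%), and after panobinostat 5 were (16.9%). Of the 29, 1 passed the filter only with treated libraries. Among the 28 that reached 1 TPM in at least 2 vehicle libraries, 18, 7 and 14 were called higher in the 3 comparisons. Median log2 changes of the 29 were 1.47, 0.41 and 0.63. Irf1, an interferon-induced activator of class I genes, averaged 174 ± 64.7 TPM after the combination, 43.8 ± 28.8 TPM after CBL0137, 21.99 ± 0.27 TPM after panobinostat, and 5.25 ± 0.41 TPM in vehicle tumours (SD, n = 3, 3, 2 and 3). Relative to panobinostat, CBL0137 had Irf9, a subunit of an interferon-activated transcription factor, higher by 1.64 (limma adjusted p = 0.0098), and the interferon gamma receptor chain Ifngr1 lower (-1.16).

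Several lists of cell type markers were called higher alongside the class I genes. All 10 pan-leukocyte markers were called higher than vehicle after the combination, after CBL0137 and after panobinostat, where 35.9%, 4.99% and 25.5% of tested genes were. Of 22 macrophage markers 22, 12 and 21 were called higher in the 3 comparisons, of 17 endothelial markers 17, 3 and 17, and of 18 fibroblast markers 17, 4 and 17 (1 fibroblast marker was called lower after the combination). Of the tested lymphocyte markers, 12 of 16 for T cells, 8 of 10 for B cells and 4 of 4 for natural killer cells passed the filter only with treated libraries. So did 1 leukocyte, 3 macrophage and 2 endothelial markers. Without these, 9 of 9 leukocyte markers were called higher in each of the 3 comparisons. Of the 19 macrophage markers left 19, 10 and 18 were, and of the 15 endothelial markers left 15, 3 and 15 were. All 18 fibroblast markers passed in vehicle libraries. Of the 4 T cell markers that reached 1 TPM in at least 2 vehicle libraries, 3, 1 and 3 were called higher in the 3 comparisons. Of the 2 such B cell markers 2, 1 and 2 were. The summed leukocyte markers lay at 1335 to 1665 TPM after the combination, 309.6 to 829.5 TPM after CBL0137, 663 to 792 TPM after panobinostat, and 95.6 to 107 TPM in vehicle tumours, with none of the 10 at 0 in any library. The summed macrophage markers lay at 8667 to 12220 TPM, 2109 to 4304 TPM, 5146 to 6514 TPM and 959.8 to 1181 TPM in the same groups, with Ly6c2 at 0 in vehicle replicate 3. Relative to panobinostat, CBL0137 had 12 of 22 macrophage markers called lower, against 12.1% of tested genes. It also had 14 of 18 fibroblast markers and 4 of 6 neutrophil markers called lower, and 3 of those 6 passed the filter only with treated libraries. Only 1 of 10 leukocyte, 1 of 17 endothelial and 1 of 16 T cell markers were called lower, and none of B cells, natural killer cells or dendritic cells. No marker of these lists was called higher. None of the 10 class I genes was called in that comparison, with log2 differences from -0.25 (H2-D1) to 1.35 (Tap1). CBL0137 replicate 3, the library highest for the class I genes, also had the highest leukocyte sum of its group (829.5 TPM, against 309.6 and 321 TPM in replicates 1 and 2). Its B cell sum was the highest too (186 TPM, against 10.07 and 32.9 TPM). So were its macrophage (4304 TPM, against 2299 and 2109 TPM) and fibroblast sums (2308 TPM, against 1127 and 996 TPM). The same held for its T cell, natural killer cell, dendritic cell, neutrophil and endothelial sums. Its noradrenergic tumour marker sum was not the highest (2199 TPM, against 2545 TPM in replicate 1). Combination replicate 3, the lowest of its group for the class I genes, had the lowest leukocyte sum there (1335 TPM, against 1665 and 1578 TPM). It also had the lowest B cell sum (38.3 TPM, against 91.01 and 44.09 TPM). The same held for its natural killer cell sum (4.52 TPM, against 29.83 and 11.99 TPM). Its dendritic cell, neutrophil and fibroblast marker sums were the lowest too, the last by little (7062 TPM, against 7065 TPM in replicate 2). Its macrophage sum was not the lowest (9052 TPM, against 8667 TPM in replicate 1). Nor was its T cell sum (172 TPM, against 136 TPM in replicate 2) or its endothelial sum (985.5 TPM, against 740.5 TPM in replicate 1). Endothelial sums lay at 740.5 to 1463 TPM after the combination, 148 to 396 TPM after CBL0137, 387 to 446 TPM after panobinostat, and 71.1 to 115 TPM in vehicle tumours, and fibroblast sums at 7062 to 7891 TPM, 996 to 2308 TPM, 4461 to 5300 TPM and 493 to 773 TPM. The part of these cell types in the class I levels was not tested.

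Each library sums to 1000000 TPM, and 12856 to 14747 genes per library reached 1 TPM. Noradrenergic tumour markers summed to 892 to 1800 TPM after the combination, 2123 to 2545 TPM after CBL0137, 1295 to 1543 TPM after panobinostat, and 1570 to 1826 TPM in vehicle tumours. Of these 15 markers, 9 were called lower after the combination than in vehicle (30.1% of tested genes were) and 2 higher (35.9%). The combination had 9 called lower than after CBL0137 (23.7%) and 7 lower than after panobinostat (4.3%), and none higher. Relative to vehicle, 2 were called higher after CBL0137 (4.99%) and none lower, while 2 were called lower after panobinostat (16.9%) and none higher. Markers of neighbouring tissue were high in some libraries. Adrenal cortex markers reached 7354 TPM in combination replicate 2 and kidney markers 431 TPM in vehicle replicate 2. Muscle markers reached 9752 TPM in panobinostat replicate 3, 774 TPM in combination replicate 1 and 621 TPM in CBL0137 replicate 2. Without combination replicate 1, combination replicate 2 or vehicle replicate 2, all 10 class I genes were called higher after the combination than in vehicle. The CBL0137 count was 9 of 10 without vehicle replicate 2 and 10 of 10 without CBL0137 replicate 2. Without panobinostat replicate 3, 9 of 10 were called higher after panobinostat than in vehicle (H2-Q4 had limma adjusted p = 0.0532). Of all calls relative to vehicle, 54.4% were higher after the combination (38.4% with quantile normalization) and 60.2% after panobinostat (47.8% with TMM factors and 38.2% with quantile normalization). Higher calls were 58.3% of the calls between the combination and CBL0137 (42.1% with quantile normalization), 59.2% between the combination and panobinostat (45.1% with quantile normalization and 35.4% on rescaled TPM), and 36.0% between CBL0137 and panobinostat (52.6% with TMM factors and 53.3% with quantile normalization). Quantile normalization moved the median log2 change of all tested genes after the combination to -0.26, beside 0.08 as deposited, a shift far smaller than the changes of the 10 genes.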

How the data were processed

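Total RNA of flash-frozen tumours was sequenced, and the authors deposited TPM per gene for 11 libraries; STAR, SAMtools, RSEM and mm10 are named in the submitters' processing notes, with versions and annotation not given in the sources used here. The depth of each library is unknown, since TPM keep no counts, so no counting interval is given and the smallest detectable difference is set by the spread between libraries. Symbols of 27 rows that had become dates were replaced by their transcript identifier.

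A gene was tested if 2 or more libraries reached 1 TPM (15497 genes, with 8914 left out), as log2(TPM + 1), which understates changes of low genes. All 10 members passed; 9 of 10 reached 1 TPM in at least 2 vehicle libraries. One limma 3.58.1 model (R 4.3.3; trend, 7 residual degrees of freedom) fitted 4 group means, each contrast 2-sided with Benjamini-Hochberg adjustment over all tested genes and a threshold of 0.05. The script was tested on simulated data. For 1 gene, permuting 3 libraries against 3 exactly cannot give a p below 0.1. Group and replicate come from the labels; adjusted p values measure the spread between these mice.

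Ratios and figures used Python 3.11.15, numpy 2.4.6, pandas 2.3.3 and matplotlib 3.10.9. Promoters are RefSeq windows of GRCm38.p6. All members are named in every comparison; of each other list, genes called with the lowest adjusted p in a comparison were named, up to 4. One gene this rule would name is not reported here. For H2-K1, B2m, Tap1 and Nlrc5 the 5 genes with the highest Pearson r were named, among those reaching 5 TPM in some library. The members and gene lists were chosen with earlier results of these data known, so their counts are descriptions. Alternatives were a pseudocount of 0.1 or 5, all genes unfiltered, a 5 TPM filter, scaling by TMM factors or by quantile normalization, TPM rescaled without small structural RNA and histone genes, the replicate number as a block, fits on the compared groups only, and each library left out.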

Additional observations from a re-analysis of the deposited data

How the results depend on the processing

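All 10 genes were called higher in the combination than in vehicle, and higher than after CBL0137, under every alternative run. After CBL0137 relative to vehicle the count was 5 with no filter on low values and 5 to 10 with each library left out, and after panobinostat 9 to 10. A pseudocount of 5 gave 7 after CBL0137 and 7 after panobinostat. Between the combination and panobinostat it was 3 with no filter, 4 with the replicate number as a block and 2 to 10 with each library left out. Between CBL0137 and panobinostat it was 1 with TMM factors, 1 with quantile normalization and 0 to 0 with each library left out. No alternative called the interaction of a member. Over all tested genes, calls between CBL0137 and vehicle numbered 949, against 471 with no filter, 547 with a pseudocount of 5, 521 with the block and 324 to 1333 with each library left out. Between the combination and panobinostat they numbered 1634, against 617 with no filter, 3327 with quantile normalization, 345 with the block, 523 in a fit on those groups and 362 to 3366 with each library left out. Between CBL0137 and panobinostat they numbered 2935, against 1249 with the block, 8 in a fit on those groups and 0 to 4022 with each library left out. Between panobinostat and vehicle they numbered 6572, and 4049 to 7174 with each library left out. For the interaction, 20 genes were called with no filter and up to 44 with a library left out. Exact adjusted p over the libraries left out ran from 0.00524 to 0.038 for Tap1 over Tap2, from 0.00905 to 0.0521 for H2-K1 over H2-D1 and from 0.0521 to 0.485 for H2-K1 over B2m.

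Replicate numbers did not pair the libraries: same-numbered libraries correlated at -0.26 to 0.19 in their deviations from group means, and 1 of 11 was closest to a library of its own number. With the replicate block, 9 members were called after CBL0137 and 9 after panobinostat.

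Uncalled differences changed sign. Between CBL0137 and panobinostat, H2-M3 was 0.21 with quantile normalization; leaving out libraries gave -0.72 to 0.15 for H2-K1, -0.31 to 0.44 for B2m, -0.52 to 0.45 for Tap2 and -0.35 to 0.53 for Tapbp. For the interaction, a pseudocount of 0.1 gave -0.50 for Tap1, -0.20 for Tap2 and -0.23 for Nlrc5, and a pseudocount of 5 gave 0.55 for H2-Q4 and 0.42 for H2-M3. TMM factors gave -0.0011 for Tap1, quantile normalization 0.37 for H2-Q4 and 0.55 for H2-M3, and rescaled TPM -0.24 for Tap1 and -0.0077 for Tap2. Leaving out libraries gave interactions of -0.30 to 0.61 for Tap1, -0.51 to 0.49 for H2-Q4, -0.26 to 0.39 for H2-M3, -0.15 to 0.82 for Tap2, -0.043 to 0.83 for Tapbp, -0.82 to 0.043 for H2-K1, -0.50 to 0.20 for H2-D1 and -0.68 to 0.15 for H2-T23. The cause was not tested. Of the recomputed log2 changes of members, 70 kept their direction and lost the call.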

Other observations

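Receptors of families that read class I molecules were measured in the same libraries, and not every one of them need bind class I itself. Of 12 such genes in the table, 5 passed the filter, and 3 of those did so only with the help of treated libraries. The other 2, Pirb and Lilrb4a, inhibitory receptors of myeloid cells, were called higher than vehicle after the combination, CBL0137 and panobinostat, where 35.9%, 4.99% and 25.5% of tested genes were. Lilrb4a changed by 4.95, 2.50 and 3.58 on the log2 scale after the combination, CBL0137 and panobinostat, and Pirb by 4.04, 1.80 and 3.51. Both were called lower after CBL0137 than after panobinostat (Lilrb4a -1.09 and Pirb -1.71), where 12.1% of tested genes were. Leukocyte markers moved with these genes as given above, and their part was not tested.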
